A study of Mus musculus with 4 samples.

Results

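The clustered Zfp genes are protein-coding genes of mouse chromosomes 1 to 19 whose symbol is Zfp followed by a number, with at most 1 letter after it, and whose body lies within 100 kb of another such gene. Symbols and bodies were those of RefSeq on GRCm38.p6, the assembly that mm10 names. The rule used no measured value and gave 222 of 20665 protein-coding genes, in 50 clusters, and left 164 solitary Zfp genes. H3K9me3, a histone mark of heterochromatin, had been mapped by native ChIP-seq, in which chromatin is cut with micrococcal nuclease and not cross-linked. Both groups came from wild-type mice of the C57BL/6 strain, were CD8+ T cells, and were 1 library each. The day 0 cells were naive, and the day 3 cells had been cultured in IL-2 with anti-CD3 and anti-CD28 antibodies. The labels do not give the age, sex or number of the mice.

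Zfp genes encode proteins that bind DNA through zinc fingers. Many carry a KRAB domain, which recruits the corepressor TRIM28 and, through it, the H3K9 methyltransferase SETDB1 and the heterochromatin protein HP1. KRAB zinc finger proteins are best known for silencing transposable elements in embryonic cells. Most of their genes arose by tandem duplication and sit in arrays, and in human cells the zinc finger exons at their 3′ ends are a known place of H3K9me3. The symbol Zfp is also given to zinc finger proteins without a KRAB domain.

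The values come from the authors' lists of significant islands, which are runs of enriched windows merged into 1 region. The lists held 19989 islands with 3402787 reads on day 0 and 47553 islands with 10423178 reads on day 3. Each day had 1 ChIP library, so nothing was tested between days, and every difference given here is one between 2 libraries. Shares carry 95% Wilson intervals and read counts exact 95% Poisson intervals, for counting error only. The lack of an island says that no region passed the authors' threshold there. In bulk chromatin, a mark in fewer cells and less of the mark per cell cannot be told apart. Neighbouring Zfp genes can be near-identical copies, and how reads that map to several places were handled was not given in the sources used here, so the lack of an island is uncertain at such genes. H3K9me3 does not measure expression, so the cell type label could not be checked by it. Of 8 T cell genes, Cd8a and Cd8b1 among them, Cd247 alone had an island, over 3.55 kb on day 3. Among the 4 markers of other cells, the B cell gene Ms4a1 had an island on day 3 and the myeloid gene Csf1r on day 0.

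Islands rarely reached the start sites of these genes, as was the case for protein-coding genes at large. RefSeq's promoter table held 213 start-site windows, each from 250 bases before to 50 after a start, for 192 of the members. An island reached the window of 2 of 192 members (1.04%) on day 0, which were Zfp953 and Zfp72, and of 2 others on day 3, which were Zfp105 and Zfp457. Over all 16457 protein-coding genes in the table the shares were 2.18% on day 0 and 3.49% on day 3, and over 132 solitary Zfp genes they were 2.27% and 0.758%. Windows were wholly covered at Zfp105 on day 3 and at Zfp953 on day 0. In Zfp72 84 bases of the window of an internal start were covered, and in Zfp457 62 bases. The windows of Zfp105 and Zfp953 are given here with those of Zfp760 and Zfp799, whose bodies were covered most on day 3 while their starts were not. They were read from RefSeq on GRCm38.p6, run 5′ to 3′ along the gene, and have each CG dinucleotide, the site of DNA methylation, in capitals. They lie at chr9:122922828-122923127 (+ strand), chr13:67360523-67360822 (- strand), chr17:21707491-21707790 (+ strand) and chr17:32830212-32830511 (- strand).
Zfp105: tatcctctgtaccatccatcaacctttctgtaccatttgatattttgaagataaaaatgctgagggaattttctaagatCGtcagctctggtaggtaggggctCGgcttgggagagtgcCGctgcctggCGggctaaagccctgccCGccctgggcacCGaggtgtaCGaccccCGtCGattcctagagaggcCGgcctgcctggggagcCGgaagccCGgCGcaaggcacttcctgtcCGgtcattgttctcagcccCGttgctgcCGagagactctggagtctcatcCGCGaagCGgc
Zfp953: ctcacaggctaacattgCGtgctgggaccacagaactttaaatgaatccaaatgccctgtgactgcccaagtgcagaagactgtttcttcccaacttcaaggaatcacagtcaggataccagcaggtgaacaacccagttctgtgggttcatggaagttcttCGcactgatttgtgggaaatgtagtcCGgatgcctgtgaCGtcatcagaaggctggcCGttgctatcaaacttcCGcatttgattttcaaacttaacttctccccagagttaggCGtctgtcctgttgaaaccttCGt
Zfp760: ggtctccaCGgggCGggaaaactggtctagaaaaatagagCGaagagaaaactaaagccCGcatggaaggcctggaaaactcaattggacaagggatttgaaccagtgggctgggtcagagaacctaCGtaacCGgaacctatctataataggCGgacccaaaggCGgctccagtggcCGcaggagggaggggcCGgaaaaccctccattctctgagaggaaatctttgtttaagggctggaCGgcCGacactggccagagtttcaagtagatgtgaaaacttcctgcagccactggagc
Zfp799: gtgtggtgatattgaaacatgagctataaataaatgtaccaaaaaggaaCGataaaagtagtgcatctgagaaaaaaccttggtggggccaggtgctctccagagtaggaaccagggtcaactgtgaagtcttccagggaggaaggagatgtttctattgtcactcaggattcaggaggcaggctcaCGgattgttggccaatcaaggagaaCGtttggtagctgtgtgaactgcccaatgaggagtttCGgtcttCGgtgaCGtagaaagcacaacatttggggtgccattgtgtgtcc

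CG, which reads the same on both strands, was found 19 times in the window of Zfp105, 8 times in that of Zfp953, 12 times in that of Zfp760 and 6 times in that of Zfp799. Over the members' windows the median was 11 (quartiles 7 and 17), against 14 (quartiles 4 and 25) over 20085 windows of all protein-coding genes. At least 1 CG was present in 99.5% of the members' windows and in 95.6% of all windows, and at least 5 in 89.7% and 72.5%. Members with an island on either day had a median of 10 CG per window, and members without one had 11.5. In Zfp760 the first island of the body began 10 bases past the end of the window, so the covered stretch opened just inside the gene. In Zfp799 the nearest island lay 2611 bases from the window.

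On day 0 few of the clustered genes carried the mark. An island touched 21 of 222 bodies, or 9.46% (interval 6.27 to 14.0), while 24.0% of all protein-coding genes had one. On day 3 the count was 58, or 26.1% (interval 20.8 to 32.3), beside 28.7% of all genes. With the lists as deposited, the members stood below all genes on day 0 and near them on day 3. Solitary Zfp genes, which have no such neighbour and also differ from the members in length, carried one in 49 of 164 cases (29.9%) on day 0 and in 62 cases (37.8%) on day 3. An island was present on both days in 13 members (5.86%, against 16.8% of all genes), on day 0 only in 8 (3.60%, against 7.14%) and on day 3 only in 45 (20.3%, against 11.9%). The other 156 members (70.3%, against 64.2% of all genes) had none on either day. The day 3 list was then reduced to its 19989 islands with the most reads. Members with an island on day 3 fell to 32 (14.4%, against 18.9% of all genes), and those with one on day 3 only to 24. For day 3 only, the share of all genes was not computed with this list, so the excess over all genes was not checked under it. When each list was limited to islands at or above its own median read density, 9 members kept one on day 0 (4.05%, against 15.3% of all genes) and 35 on day 3 (15.8%, against 20.2%). Under both selections the members' share on day 3 was also lower than that of all genes, by less than on day 0. No intervals were computed for the shares under these selections.

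**Figure D1:**
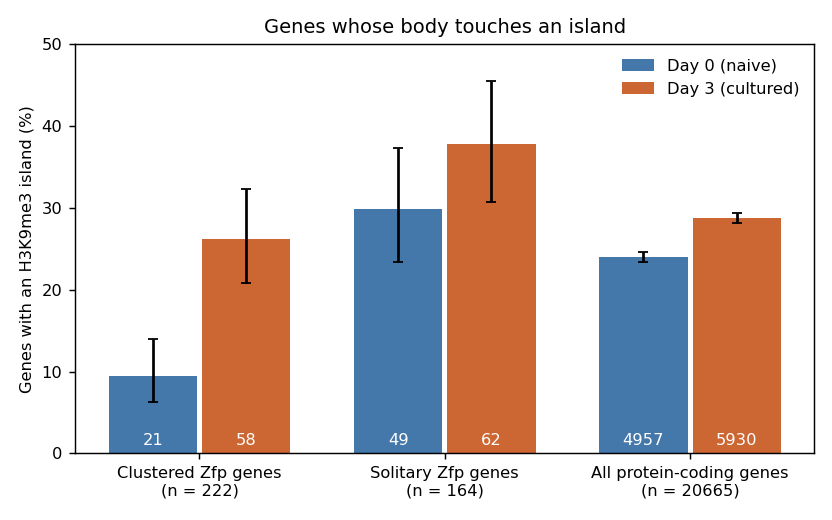
Share of genes whose body touches an island (%), for clustered Zfp genes, solitary Zfp genes and all protein-coding genes, on day 0 and day 3. Bars are shares with 95% Wilson intervals, and the number in each bar counts the genes with an island; the clustered genes stand at 9.46% on day 0 and 26.1% on day 3.

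Among all protein-coding genes, longer ones were touched more often. Median lengths were 15.8 kb for members, 20.4 kb for solitary Zfp genes and 17.5 kb for all genes. Among bodies over 20 and up to 40 kb, an island touched 14 of 78 members (17.9%) on day 0 and 35 (44.9%) on day 3, against 23.0% and 30.8% of all genes in that range. Among bodies over 10 and up to 20 kb the members' shares were 7.07% and 16.2% of 99, against 10.6% and 14.9%. None of the 13 members over 40 kb had an island on day 0 and 6 had one on day 3, whereas 59.3% and 64.5% of all genes over 40 kb had one. Of the 32 members up to 10 kb, none was touched on day 0 and 1 (3.12%) was on day 3, against 3.70% and 6.63% of all genes of that length. Of the solitary Zfp genes, 41 were over 40 kb, and 65.9% and 63.4% of these were touched on day 0 and day 3. For the 42 over 20 and up to 40 kb the shares were 35.7% and 40.5%. They were 7.02% and 29.8% for the 57 over 10 and up to 20 kb, and 12.5% and 8.33% for the 24 shorter ones.

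Measured in bases, islands covered 95.8 kb of the members' bodies (1.90%) on day 0 and 256.6 kb (5.10%) on day 3, which is 2.68 times the day 0 share. These are sums over genes, so a base in overlapping bodies was counted for each of them. With such bases counted once, islands covered 95.8 kb (1.96%) on day 0 and 241.6 kb (4.93%) on day 3. Bodies of solitary Zfp genes were covered over 5.41% and 11.2% (2.07 times), and those of all protein-coding genes over 5.11% and 9.46% (1.85 times). The member Zfp993 alone makes up 9.51% of the members' bases, and without it the shares were 2.10% and 5.41%. At least 10% of the body was covered in 17 members on day 0 (7.66%, against 12.9% of all genes) and in 40 on day 3 (18.0%, against 18.9%). At least 25% was covered in 7 members on day 0 (3.15%, against 3.67%) and in 16 on day 3 (7.21%, against 8.71%). More of the body was covered on day 3 than on day 0 in 51 members (22.8% of all genes did so), and more on day 0 in 15 (12.8% of all genes). With the reduced day 3 list, 3.25% of the members' bases were covered on day 3, against 6.18% over all genes.

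Read densities of islands on the members lay close to those of the whole lists. The 24 islands that touched members on day 0 had a median of 33.8 reads per kb (quartiles 31.8 and 38.2), against 34.1 over all autosomal islands of that list. The 68 islands on day 3 had a median of 53.4 (quartiles 46.9 and 57.7), against 52.9. These densities are not corrected for depth. The least dense day 3 island in the genome held 34.1 reads per kb, and 13 of the 24 day 0 islands on members (54.2%) were below that, as were 50.4% of all autosomal day 0 islands. Median island lengths were 4800 bp and 3700 bp, against 4800 and 3600 bp in the whole lists.

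With the lists as deposited, day 3 islands touched the 3′ end of these genes more often than the 5′ end. A touch could be short, as in Zfp119b, where an island of 2600 bp covered 0.028 kb of the body. Strand was known for the 192 members in the promoter table, and each body was divided into 10 equal parts, so that the last part is the final 10% of the gene. That last part held an island in 28 members (14.6%, interval 10.3 to 20.3) and the first part in 6 (3.12%, interval 1.44 to 6.65). Over all protein-coding genes the shares were 12.1% in the last part and 10.9% in the first. Solitary Zfp genes showed 17.4% and 9.85%. The mean covered share of a member's bases was 6.70% over the last 5 parts and 3.86% over the first 5. For solitary Zfp genes it was 10.4% and 6.79%, and for all protein-coding genes 6.31% and 6.06%.

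Members with a day 3 island in the last 10% were spread over chromosomes 4, 5, 6, 7, 9, 13, 16 and 17. They included Zfp667, Zfp266, Zfp712, Zfp748, Zfp597, Zfp52, Zfp946, Zfp811 and Zfp563. In Zfp583, Zfp560, Zfp105, Zfp595 and Zfp760 the first 10% held an island as well. Zfp993 was the member with one in the first 10% alone. Outside chromosome 17 the counts were 20 of 158 members in the last 10% and 5 in the first. On day 0 these parts each held an island in 4 of 192 members (2.08%), against 7.73% of all genes in the last 10% and 6.07% in the first. With the reduced day 3 list the last 10% held an island in 4.69% of members (interval 2.49 to 8.67). The first held one in 2.08% (interval 0.813 to 5.23), and these intervals overlapped. Both shares were below those of all genes (7.04% and 6.31%). With the limit at the median density the members' shares were 7.81% and 2.60%, and those of all genes 6.53% and 5.89%.

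**Figure D2:**
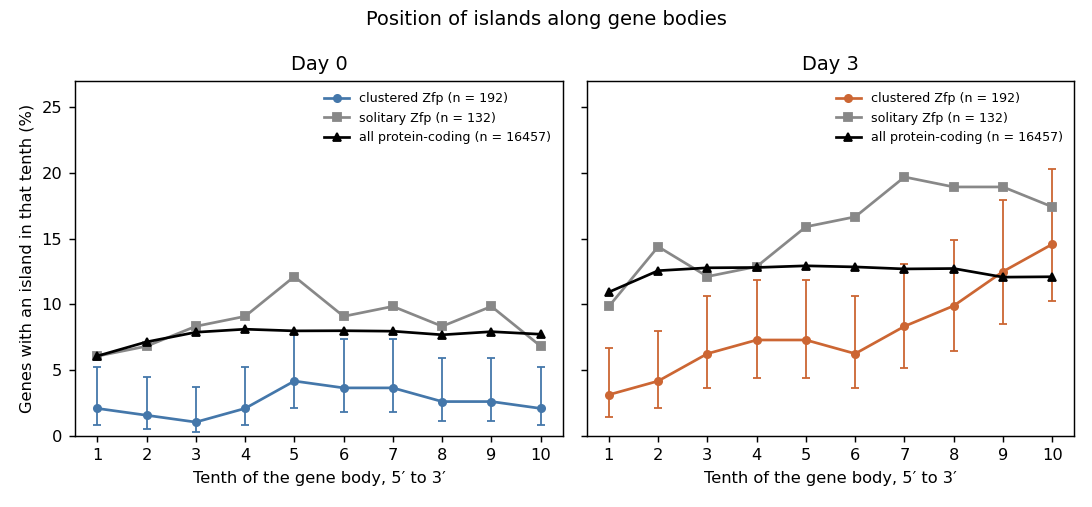
Share of genes with an island (%) in each of 10 equal parts of the body from 5′ to 3′, on day 0 and on day 3, for clustered Zfp genes (192), solitary Zfp genes (132) and all protein-coding genes (16457). Bars are 95% Wilson intervals for the clustered genes, which run from 3.12% in the first part to 14.6% in the last on day 3.

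Along the genome, the 50 clusters spanned 8730 kb from the first to the last member's body, with a median of 119.2 kb (range 23.3 to 788.4 kb). Pairs made up 20 clusters, and 15 clusters had 5 or more members. Islands covered 2.56% of the spans on day 0 and 4.67% on day 3, against 4.08% and 8.07% of all autosomes. In windows of 200 kb on either side of the clusters the shares were 2.19% and 3.16%. Other clusters were not taken out of these windows, so some windows include parts of a nearby cluster, and some bases were counted more than once. Space between the members' bodies was covered over 3.33% on day 0 and 4.34% on day 3, and the bodies over 1.96% and 4.93%, with overlapping bodies counted once. The bodies were thus covered less than the space between them on day 0 and slightly more on day 3. Of the covered bases in the spans, 36.2 kb were covered on both days, which is 16.2% of the day 0 bases and 8.88% of the day 3 bases. Over all autosomes the shares were 21.2% and 10.7%.

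Clusters were uneven. An island was present on both days in 19 clusters, on day 3 only in 10, on day 0 only in 3 and on neither day in 18. Those 18 held 43 members over 1346 kb, among them the 5 genes of the Zfp354c to Zfp354b cluster on chromosome 11 and the pair of clusters on chromosome 15. More sequence was covered on day 3 in 25 clusters and on day 0 in 7. Across the 50 clusters the day 0 and day 3 shares had a Pearson's r of 0.47 and a Spearman's rho of 0.52, as a description, since the clusters of a day share 1 library.

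**Figure D3:**
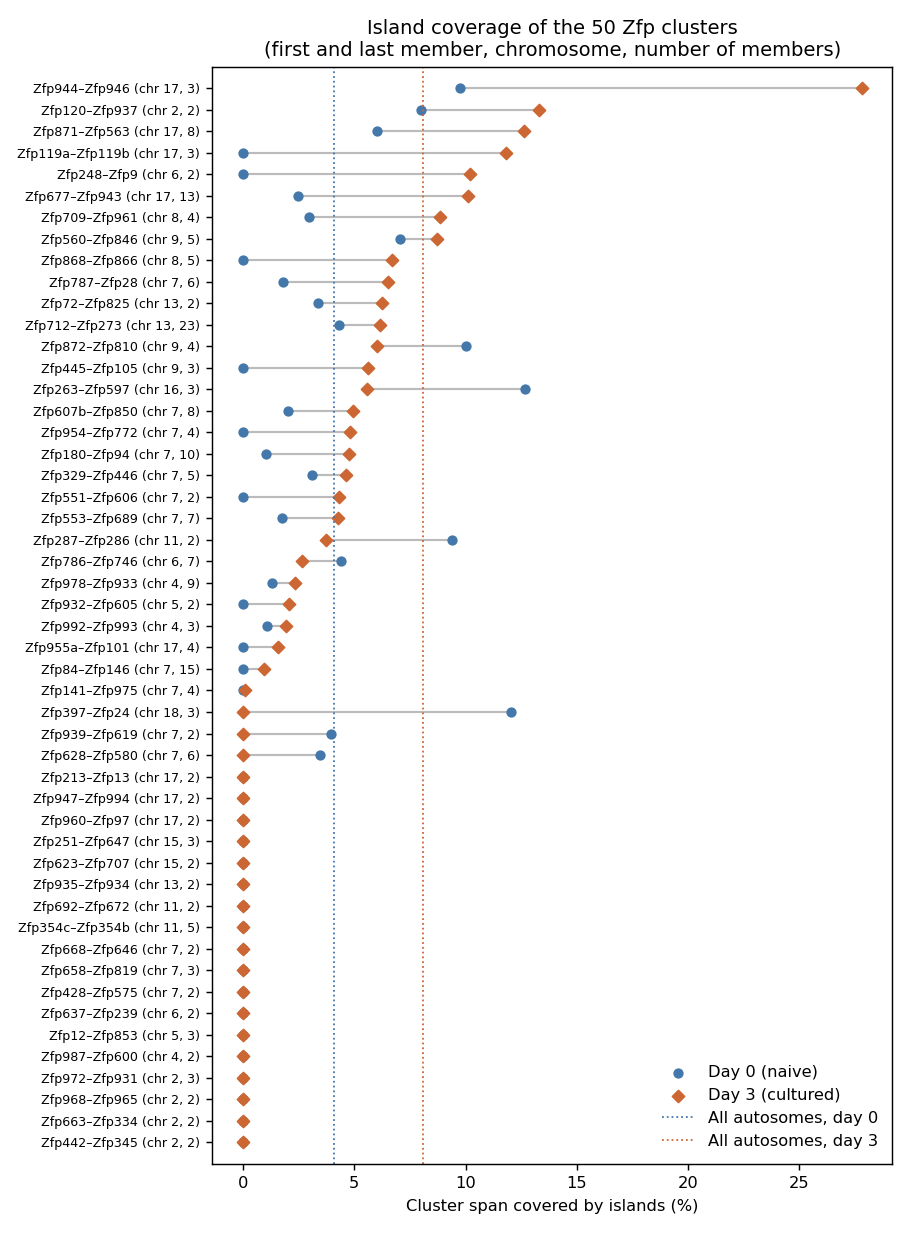
Share of each cluster's span covered by islands (%), on day 0 (circles) and day 3 (diamonds), for the 50 clusters named by first and last member, with chromosome and number of members. Dotted lines mark all autosomes (4.08% and 8.07%); the cluster of Zfp944 to Zfp946 reached 27.8% on day 3, and 18 clusters had no island on either day.

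Chromosome 17, singled out after its values were seen, held 4 of the 6 clusters with the highest covered share on day 3. The 6th of these was that from Zfp677 to Zfp943 (10.1%), just below Zfp248 to Zfp9 on chromosome 6 (10.2%). Of the 8 clusters on chromosome 17, 3 had no island on either day. The 8 clusters made up 17.5% of all spans, 21.3% of the bases covered in spans on day 0 and 37.1% of those covered on day 3. An island touched 5 of its 37 members (13.5%) on day 0 and 18 (48.6%, interval 33.4 to 64.1) on day 3, while 14.8% and 19.5% of all genes on this chromosome had one. Elsewhere 16 of 185 members (8.65%) were touched on day 0 and 40 (21.6%) on day 3, and islands covered 1.85% and 3.79% of their bases. Islands covered 2.17% of the members' bases on chromosome 17 on day 0 and 12.1% on day 3, beside 4.19% and 6.998% over all its genes.

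The 3 members of the Zfp944 to Zfp946 cluster (118.7 kb) had no island on day 0 and 1 or more each on day 3. Of its span 9.77% was covered on day 0, by 1 island between Zfp758 and Zfp946, and 27.8% on day 3. Zfp758 was covered over 11.6 kb on day 3, or 35.7% of its body, by 1 island (chr17:22368401-22380000) with 634 reads (interval 586 to 685). Zfp946 was covered over 8.60 kb and Zfp944 over 1.80 kb. In the cluster of 13 from Zfp677 to Zfp943 (610.7 kb) the covered share was 2.49% on day 0 and 10.1% on day 3. An island touched 2 of its members on day 0, against 8 on day 3.

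Zfp760 in that cluster was the most covered of all members. It had no island on day 0. On day 3 it had 2, chr17:21707801-21719800 with 645 reads (interval 596 to 697) and chr17:21721201-21724400 with 182 reads (interval 157 to 210), which covered 15.2 kb or 83.5% of its body. Zfp948 in the same array had nearly equal stretches covered, 7.0 kb on day 0 against 6.80 kb on day 3, with 1.60 kb in common. Its islands of both days fell below the median density of their lists. Zfp229 had an island over 2.37 kb on day 0, below the median density of its list, and none on day 3.

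The 8 genes from Zfp871 to Zfp563 (345.2 kb) had 6.03% of their span covered on day 0 and 12.6% on day 3. Zfp799 had no island on day 0 and was covered over 8.20 kb (55.4% of its body) on day 3, in 1 island with 372 reads (interval 335 to 412) that fell below the median density of its list. For Zfp472 the covered part of the body was 4.57% on day 0 against 43.3% on day 3, and for Zfp563 it was 11.2% and 35.6%. Zfp871 had 4.80 kb covered on day 0 against 4.20 kb on day 3. In the cluster of 3 from Zfp119a to Zfp119b, 11.8% of the span was covered on day 3 and none on day 0, with Zfp959 covered over 43.3% of its body.

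**Figure D4:**
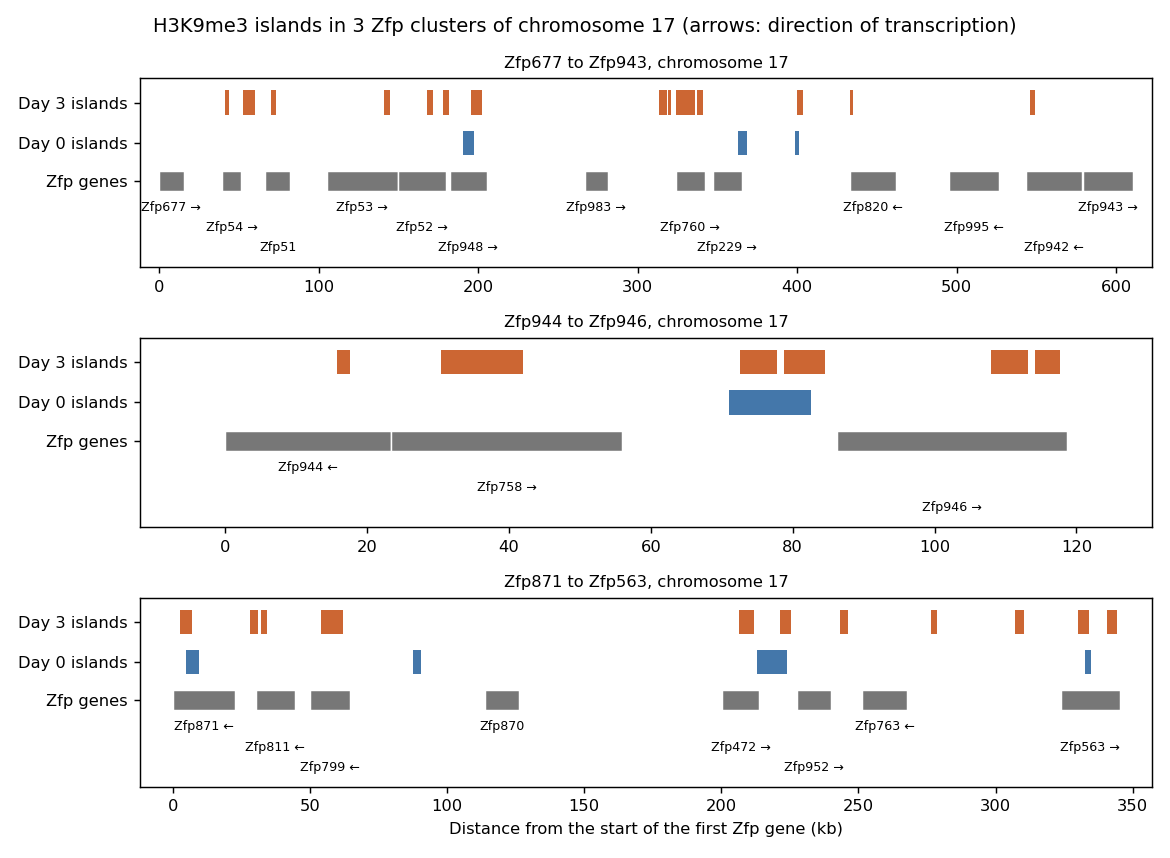
Zfp gene bodies (grey) and H3K9me3 islands of day 0 (blue) and day 3 (orange) in 3 clusters of chromosome 17, against the distance from the start of the first gene (kb). Arrows give the direction of transcription where the promoter table has it; Zfp760 lies under 2 islands on day 3 and none on day 0.

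The cluster with the most members was that of 23 genes from Zfp712 to Zfp273 on chromosome 13 (788.4 kb). Islands covered 4.31% of it on day 0 and 6.14% on day 3, and touched 5 and 7 members. Zfp87 was covered to 34.6% on day 0 and to 49.8% on day 3, by islands that shared no base. Each of these islands fell below the median density of its list. Zfp708, which in mice represses a family of retrotransposons in oocytes, had no island on day 0 and 2 on day 3, over 7.80 kb (27.3%). Zfp712 had 7.60 kb covered on day 0, in an island below the median density of its list, against 4.01 kb on day 3. Zfp457 had 1.86 kb covered on day 0 and none on day 3, and Zfp85 had no island on either day. In a pair elsewhere on this chromosome, Zfp72 was covered to 19.5% on day 0 and to 36.2% on day 3.

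Chromosome 7 held 76 members in 14 clusters, and an island touched 3 of them on day 0 (3.95%, beside 13.8% of all genes of the chromosome) and 12 on day 3 (15.8%, beside 15.7%). In its array of 15 genes from Zfp84 to Zfp146 (401.2 kb) the single island on either day was a day 3 island of 3.80 kb with 167 reads (interval 143 to 194). It lay in Zfp568, a KRAB repressor needed in mouse embryos to silence a placental transcript of Igf2, over 8.57% of the body, and was not among the 19989 day 3 islands with the most reads. Zfp30 and Zfp382 in the same array had no island. The array of 10 from Zfp180 to Zfp94 had 1.02% and 4.77% of its span covered, and Zfp109 was the one member with an island, on both days, with 2.20 kb in common. The array of 8 from Zfp607b to Zfp850 had 2.003% and 4.95% covered, with 4 members touched on day 3 and none on day 0.

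Of the other clusters on chromosome 7, the 6 genes from Zfp787 to Zfp28 had 1.81% and 6.50% of their span covered. Zfp787 had 4.80 kb covered on day 0 and none on day 3, and Zfp667 none on day 0 and 6.20 kb on day 3, in an island below the median density. In the 5 genes from Zfp329 to Zfp446 the shares were 3.08% and 4.63%. Zfp329 was covered to 37.04% on day 0 and to 10.7% on day 3, at different places, and Zfp110 and Zfp128 had no island. The day 0 island of Zfp329 fell below the median density of its list. The 7 genes from Zfp553 to Zfp689 had no island in any body, though 1.76% and 4.26% of the span was covered. The 6 from Zfp628 to Zfp580 had 3.46% of the span covered on day 0 and none on day 3, again outside the bodies. In a cluster of 4, 37.7% of Zfp418 was covered on day 3 only. In the cluster of 3 that holds Zfp819 no island was present.

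On chromosome 9 islands reached 3 of 12 members (25%) on day 0 and 6 (50%) on day 3, beside 26.1% and 31.8% of all genes of the chromosome. The cluster of 5 from Zfp560 to Zfp846 had 7.07% and 8.71% of its span covered, by islands that shared no base. Zfp846 had 9.80 kb covered on day 0, or 40.7%, and nothing on day 3. Zfp560 had none on day 0 and 11.7 kb covered on day 3, and Zfp266 4.53 kb on day 3, in an island below the median density. The next cluster held Zfp809, which in mice recognises and silences endogenous retroviruses, and its neighbour Zfp810. Zfp809 had no island on day 0 and 4.60 kb covered on day 3 (16.2%), in an island of 210 reads (interval 183 to 240) that reached Zfp599 as well and fell below the median density of its list. Zfp810 had 8.4 kb covered on day 0, or 27.03%, and none on day 3, and its islands fell below the median density of their list. Zfp445, which in mice helps to maintain imprints and was picked after its values were seen, had no island on either day.

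Clusters with more covered sequence on day 0 were found on several chromosomes. From Zfp263 to Zfp597 on chromosome 16 the covered share was 12.7% on day 0, all outside the bodies, and 5.56% on day 3. From Zfp397 to Zfp24 on chromosome 18 it was 12.05% on day 0 and none on day 3. Zfp397 had the highest covered share of any member on day 0, at 45.9% of its body, and Zfp35 beside it had no island. From Zfp287 to Zfp286 on chromosome 11 the shares were 9.38% and 3.71%, and Zfp286 had 9.11 kb covered on day 0 against 3.45 kb on day 3. In the 7 genes from Zfp786 to Zfp746 on chromosome 6 they were 4.42% and 2.65%.

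Among the remaining clusters, that of Zfp120 and Zfp937 on chromosome 2 had 8.01% covered on day 0 and 13.3% on day 3, mostly between the bodies. The pair Zfp248 and Zfp9 on chromosome 6 had 10.2% covered on day 3 only. In the 5 genes from Zfp868 to Zfp866 on chromosome 8, 6.70% was covered on day 3 only, with no member touched. In Zfp882, also on chromosome 8, 44.9% of the body was covered on day 3 only, and Zfp961 in its cluster had no island. On chromosome 4 the 9 genes from Zfp978 to Zfp933 had 1.298% and 2.32% of their span covered. In the neighbouring cluster of 3, Zfp981 and the long Zfp993, whose bodies overlap, shared an island of 8.60 kb on day 3, which with a second one gave 10.4 kb in Zfp993. Zfp992, the other gene there, had 3.20 kb covered on day 0 only. Zfp932 on chromosome 5 had no island.

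**Figure D5:**
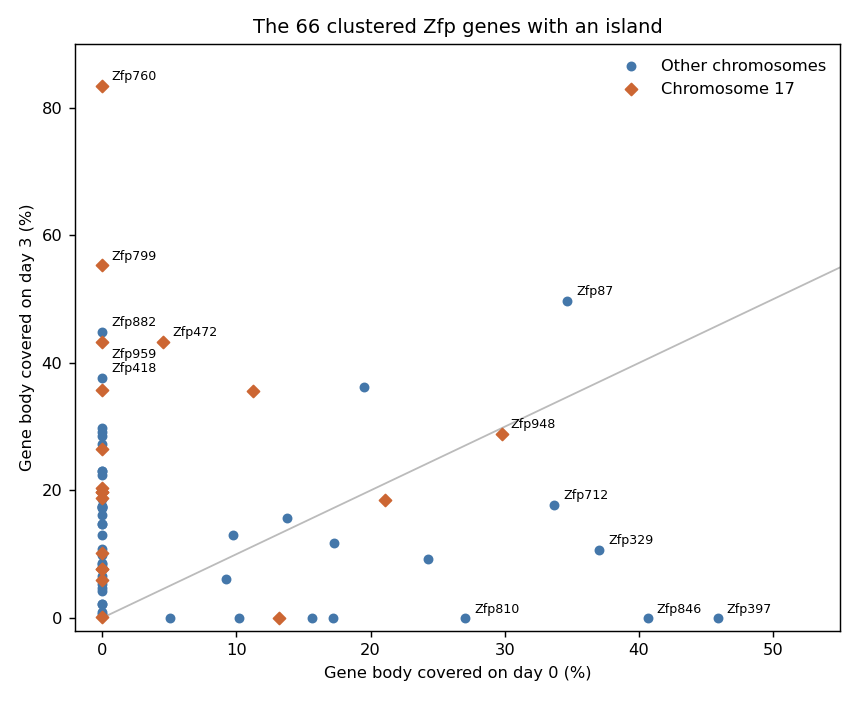
Share of the gene body covered on day 0 (x axis, %) and on day 3 (y axis, %) for the 66 members with an island on either day, with those of chromosome 17 as diamonds. The line marks equal shares; 45 members lie at 0 on day 0, Zfp760 reaches 83.5% on day 3, and Zfp397, Zfp846 and Zfp810 lie at 0 on day 3.

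In the 13 members with islands on both days, the islands of the days shared bases in 6 (46.2%, against 60.5% of all genes with islands on both days). These were Zfp109, Zfp712, Zfp72, Zfp948, Zfp871 and Zfp563, with 11.2 kb shared in all. In the other 7 no base was shared. The members nearest to the limit of the rule were Zfp932 and Zfp605, 97.8 kb apart and inside it, and Zfp936 and Zfp715, 104.4 kb apart and outside it. Zfp605 was covered over 13.0% and Zfp715 over 49.3% of its body on day 3, and none of these genes on day 0.

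Genes that act with or downstream of KRAB zinc finger proteins were examined as a list. Of the 28 symbols listed, 26 were found on the autosomes. They were touched in 7 of the 26 cases (26.9%) on day 0 and 12 (46.2%) on day 3, beside 24.0% and 28.7% of all genes, and the median covered share was 0 on both days, as it was over all genes. These shares were not matched for length, and most of the listed genes exceed 20 kb. Of all genes over 20 and up to 40 kb, 23.0% and 30.8% were touched, and of those over 40 kb 59.3% and 64.5%. In 13 of the 26 there was no island on either day. Tasor, which encodes a subunit of the HUSH silencing complex, had no island on day 0 and was covered over 30.8 kb (51.4% of its body) on day 3. Its partner gene Mphosph8 was covered over 7.20 and 4.20 kb, and Pphln1 over 7.40 and 10.2 kb. Setdb1 had 0.676 kb covered on day 0 against 3.20 kb on day 3. Smarcad1, a chromatin remodeller that binds TRIM28, and the methyltransferase gene Suv39h2 carried islands only on day 3, of 19.6 and 7.20 kb in all. In the other direction, the gene of HP1 alpha, Cbx5, had 13.1 kb covered on day 0 (26.996% of its body) and none on day 3. Trim28 had none on either day.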

How the data were processed

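Of 4 labelled libraries, the 2 H3K9me3 ChIP libraries (day 0 and day 3) were used, and the inputs were not analysed here. Libraries were sequenced as pairs of 150 bases, per the labels' protocols. The submitters' processing notes name Bowtie2, SICER 1.1 and mm10. Which threshold was set, whether input was used and how duplicate or multiply mapping reads were treated was not given in the sources used here. The authors deposited 1 whole number per island with no column name, taken as the raw count of reads in it, not scaled for depth, length or input. The number of mapped reads per library is not given, so precision across the libraries is unknown.

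Island borders, multiples of 200 bp, were converted to 1-based coordinates. RefSeq's gene table of GRCm38.p6 gave symbols and bodies, and its promoter table gave strand and start-site windows. A body had an island at 1 bp of overlap. Clusters joined Zfp genes up to 100 kb apart. Covered bases were computed with Python 3.11.15 and pandas 2.3.3, and the code was tested on simulated islands. No test was run, since each day has 1 library. The members and lists were chosen with earlier results of these data known. Named members were the 10 with the highest covered share on each day, the 10 with the largest excess of each day, and 14 fixed by symbol; named clusters were those of 5 or more members and the 5 most covered on each day. Other genes are named as chosen after their values were seen: those on start sites, in the last 10% of the body, near the limit of the rule, or examples in a cluster. The planned counts of zinc fingers, KRAB domains and protein identity need protein sequences, which were not used here. Alternatives were a reduced day 3 list, 2 limits on read density, at least 10% of the body, and neighbour distances of 50 and 200 kb.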

Additional observations from a re-analysis of the deposited data

How the results depend on the processing

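Which islands were counted moved most totals. With both lists limited to the density of the least dense day 3 island, 9 members kept an island on day 0, 5 members had one on day 0 only, and with the limit at each list's median 9 kept one on day 0 and 35 on day 3. With either limit, day 0 islands covered 0.829% of the members' bodies and 1.11% of the spans, and the first and the last 10% of the body each held one in 0.521% of members. The median limit gave 2.54% of bodies and 2.25% of spans on day 3, and 7.81% in the last 10%. With the day 3 list cut to the length of the day 0 list, 32 members had an island on day 3, 24 on day 3 only and 13 on day 0 only, and day 3 islands covered 3.25% of bodies, 2.63% of spans and reached the last 10% of the body in 4.69% of members. A neighbour distance of 50 kb gave 1.68% of bodies on day 0 and 2.26% and 5.25% of spans, and 200 kb gave 2.41% and 4.02% of spans. Without chromosome 17, chosen after seeing the data, day 3 shares were 3.79% of bodies and 3.56% of spans. Asking for 10% of the body moved no count by over 1.5 times. Density limits left nothing covered on either day in Zfp229 and Zfp810 (either limit). The median limit alone did so in Zfp87, Zfp266, Zfp472, Zfp568, Zfp667, Zfp799, Zfp809, Zfp871, Zfp948 and Zfp959, among others. Not every gene with an island below the median density is marked as such above. The sign of the difference (day 3 less day 0) turned in Zfp329 (1.62 kb with either density limit), Zfp712 (4.01 and 2.60 kb), Zfp871 (4.20 kb) and Zfp948 (6.80 kb), the last 2 with the limit at the least dense day 3 island alone. Of the 5 clusters most covered on day 3, 3 stayed among the 5 with the shortened list and 2 with the median limit. Fewer islands are counted under each of these selections by construction. For members with an island on 1 day only, no share of all genes was computed under these selections. The limit at the least dense day 3 island removed day 0 islands only (9918 were kept, beside all 47553 of day 3). Under it a difference could move toward day 3 alone, so the turns of sign under that limit say nothing about the genes. The limit at each list's median cut both lists, and under it the sign turned in Zfp329 and Zfp712 as well. The shortened day 3 list could move a difference toward day 0 alone. No paired analysis was possible because each day has 1 ChIP library.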

Other observations

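The spans hold other genes, most of them short. Of 38 protein-coding genes that are not members (median length 9.30 kb, against 17.5 kb over all), 1 was touched on day 0 and none on day 3. Over all protein-coding genes the shares were 24.0% and 28.7%, and over those up to 10 kb they were 3.70% and 6.63%. Its name is Rslcan18, a KRAB zinc finger gene, and 27.6% of its body was covered on day 0. Among 53 lncRNA genes in the spans an island touched 3 on day 0 and 5 on day 3 (9.43%, against 19.2% of all autosomal lncRNA genes). Gm41409 on chromosome 16 was covered over 90.1% on day 0 only, and 1700095A21Rik on chromosome 4 over 30.9% on day 3 only.

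Islands on the chromosome 4 members stood out in read density, as did most of the islands between them. The day 0 island in Zfp992 held 276 reads (interval 244 to 311) in 3200 bp, or 86.2 reads per kb, and 3 autosomal islands of that list were as dense, itself included. The 5 day 3 islands on chromosome 4 members ran from 61.4 to 74.8 reads per kb, all above the upper quartile of all autosomal day 3 islands (57.5). Between the bodies of these clusters, day 0 islands ran from 36.2 to 72.2 reads per kb. A day 3 island there, at chr4:147523401-147529600, held 78.5. In Zfp459 on chromosome 13 a day 3 island held 88.8 reads per kb, a density met by 0.227% of the autosomal islands. Whether copies elsewhere in the genome bear on these densities was not tested.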
